A study of Drosophila melanogaster with 3 samples.

Results

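The tRNA genes of the nucleus were examined for binding of Grain, a GATA-family transcription factor encoded by grn, in whole Drosophila melanogaster embryos. All genes on the main chromosome arms that the Ensembl annotation of dm6 classes as tRNA genes were taken, which gave 290 of the 18164 genes on those arms. The 22 tRNA genes left of the 312 annotated lie on the mitochondrial genome and were not members. The embryos, 0 to 24 h old and of both sexes, carried a transgene for Grain with GFP fused to its C-terminus, and chromatin was sonicated to 200 to 800 bp and immunoprecipitated with an antibody against GFP. The series has 1 group, with 3 biological replicates and no second condition. It reports the tagged protein in a mixture of all embryonic cell types and stages, so a peak does not say in which cells the protein was bound.

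The deposited data are peaks, each with a summit (its highest point) and a signal on the authors' own scale. Each replicate has a list of 30000 peaks, as does the pool of all 3 replicates, and the authors' optimal list holds 6580 peaks. By its label the pooled list holds peaks and background, and its −log10 q-values go down to 0.314. Those of replicates 1, 2 and 3 go down to 0.278, 0.109 and 0.338. A weak entry of these lists can therefore be background. The optimal list was identical to the 6580 pooled peaks of highest signal. A tRNA gene was counted as holding a peak when a summit lay in it or within 500 bp of it. The same number of strongest peaks, 6580, was taken from each replicate where replicates were compared, and rank 1 is the peak of highest signal. No read counts are in the lists, so the depth behind a peak is unknown.

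tRNA genes are transcribed by RNA polymerase III. Their promoter lies inside the gene: an A box and a B box are bound by TFIIIC, which places TFIIIB upstream of the start, and TFIIIB brings in the polymerase. GATA factors such as Grain are known from genes of RNA polymerase II, where they bind short DNA motifs built on the letters GATA. The members were checked against the internal promoter. The B box letters GNTCNANNC were found on the gene's strand in 289 of the 290 genes and the A box in 272, and 271 had both. In the first 73 bases, the median tRNA gene length, 93.8% of tRNA genes and 4.35% of 17267 other genes at least that long had the B box, and 93.8% and 5.04% had the A box. The genes were 71 to 186 bp long and had 95 distinct sequences, up to 13 copies of 1 sequence, in 44 anticodon groups.

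The genes of 4 tRNAs that recur in the results are given below as the RNA is read, 5′ to 3′, from release 6 of the genome (dm6), with the A box and then the B box in capitals. The serine gene Ser-GCT-2-5 (chr3R:22397572-22397653, plus strand) and the tyrosine gene Tyr-GTA-1-4 (chr3R:8642333-8642425, minus strand) each stood beside a strong summit. The cysteine gene Cys-GCA-1-1 (chr3L:3095737-3095808, plus strand) and the proline gene Pro-AGG-1-5 (chr3L:13211214-13211285, plus strand) each had a summit just inside the limit of 500 bp. The tyrosine gene has a longer stretch between its boxes, where tyrosine tRNA genes are known to carry an intron.
Ser-GCT-2-5: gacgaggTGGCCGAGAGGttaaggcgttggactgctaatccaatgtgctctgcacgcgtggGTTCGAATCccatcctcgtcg
Tyr-GTA-1-4: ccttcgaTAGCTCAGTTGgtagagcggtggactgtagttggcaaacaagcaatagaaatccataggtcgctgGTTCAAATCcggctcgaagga
Cys-GCA-1-1: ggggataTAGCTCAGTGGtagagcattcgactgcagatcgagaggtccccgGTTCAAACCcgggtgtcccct
Pro-AGG-1-5: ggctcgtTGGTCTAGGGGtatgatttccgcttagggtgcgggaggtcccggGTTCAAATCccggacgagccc

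The bases at the summits are shown next, since the question is whether Grain's own motif stood there. They are read in the direction of the tRNA gene, and capitals mark the GATA hexamer, which is AGATAA or AGATAG or TGATAA or TGATAG on either strand. Of 5 windows that reach 50 bases to each side of a summit, 2 hexamers each stood in those of Ser-GCT-2-5 (chr3R:22397843-22397943, plus strand) and Ser-GCT-2-3 (chr3R:22396388-22396488, plus strand). The windows of Phe-GAA-1-3 (chr2L:8570610-8570710, plus strand) and of the weaker of 2 summits at Gln-TTG-2-1 (chrX:3427185-3427285, minus strand) had 1 each, and that of Tyr-GTA-1-8 (chr3R:8669316-8669416, minus strand) had 0. The stronger summit at Gln-TTG-2-1, not shown, had 0. The windows shown are richer in hexamers than the whole set, where 13 of 31 optimal summits at tRNA genes had one. For 2 neighbouring tyrosine genes the whole stretch from summit window to gene end follows. In Tyr-GTA-1-4 (chr3R:8642333-8642595, minus strand) the summit is at base 51 and the gene runs from base 171 to base 263. In Tyr-GTA-1-5 (chr3R:8642701-8642882, minus strand) the summit is at base 51, the gene runs from base 90 to base 182, and there is no hexamer.
Ser-GCT-2-5: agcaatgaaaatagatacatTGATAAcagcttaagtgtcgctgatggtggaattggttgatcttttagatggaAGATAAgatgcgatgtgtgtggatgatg
Phe-GAA-1-3: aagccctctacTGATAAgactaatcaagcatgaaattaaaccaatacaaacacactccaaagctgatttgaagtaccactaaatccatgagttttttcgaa
Ser-GCT-2-3: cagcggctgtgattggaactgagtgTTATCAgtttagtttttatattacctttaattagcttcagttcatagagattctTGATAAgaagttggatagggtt
Tyr-GTA-1-8: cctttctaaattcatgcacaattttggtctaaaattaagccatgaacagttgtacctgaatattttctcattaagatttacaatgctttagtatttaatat
Gln-TTG-2-1: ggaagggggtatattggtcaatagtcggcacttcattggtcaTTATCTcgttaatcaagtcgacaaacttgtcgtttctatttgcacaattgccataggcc
Tyr-GTA-1-4 with its summit: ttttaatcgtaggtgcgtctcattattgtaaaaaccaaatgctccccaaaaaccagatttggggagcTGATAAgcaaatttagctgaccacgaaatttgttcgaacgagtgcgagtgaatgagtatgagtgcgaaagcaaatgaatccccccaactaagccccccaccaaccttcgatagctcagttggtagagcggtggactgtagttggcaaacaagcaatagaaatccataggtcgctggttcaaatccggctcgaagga
Tyr-GTA-1-5 with its summit: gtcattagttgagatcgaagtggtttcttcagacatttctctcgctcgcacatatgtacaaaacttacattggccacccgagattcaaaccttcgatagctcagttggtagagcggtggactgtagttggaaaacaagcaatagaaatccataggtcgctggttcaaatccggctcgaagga

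An optimal summit lay within 500 bp of 39 of the 290 tRNA genes, or 13.4%, against 22.8% of all other genes and 22.7% of all genes together. Protein-coding genes stood at 25.9%, while other short non-coding genes stood below the tRNA genes, with 19 of 260 microRNA genes (7.31%) and 15 of 269 snoRNA genes (5.58%). In the 6580 strongest peaks of each replicate, 37, 38 and 42 tRNA genes had a summit in replicates 1, 2 and 3, or 12.8%, 13.1% and 14.5%. All genes together had 22.9%, 25.0% and 22.1% in the same replicates. The tRNA share averaged 13.4% ± 0.912 and that of all other genes 23.5% ± 1.56 (SD, n = 3 each), and every tRNA value was below every value of the other genes. The difference in percentage points, tRNA genes minus all other genes, was -10.0 ± 2.21 (SD, n = 3), with p = 0.25 in a two-sided exact sign-flip permutation test (0.25 after adjustment over 4 comparisons). That is the smallest p that 3 replicates can give. Against microRNA genes the difference was 6.40 ± 2.47 points and against snoRNA genes 7.38 ± 2.29 points (SD, n = 3 each), positive in 3 of 3 replicates, with exact permutation p = 0.25 and adjusted p = 0.25 in both.

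The difference from all other genes was smaller when every window had the same length. A tRNA gene has a median length of 73 bp and other genes of 1686 bp, so a window around the whole gene is longer for the other genes. With 500 bp on each side of the 5′ end in place of the gene, 37 tRNA genes (12.8%) held an optimal summit, against 13.3% of all other genes and 13.3% of all genes together. In the replicates' strongest peaks this difference was -1.15, -3.09 and 0.976 percentage points, mean -1.09 ± 2.03 (SD, n = 3), with exact permutation p = 0.5, and the replicates did not share a sign. Against protein-coding genes it was -2.90, -5.20 and -0.499 points, mean -2.86 ± 2.35 (SD, n = 3), negative in 3 of 3 replicates (exact permutation p = 0.25, adjusted p = 0.333). With the same windows the tRNA genes stayed above microRNA genes by 6.09 ± 2.08 points and above snoRNA genes by 6.69 ± 2.32 points (SD, n = 3 each), in 3 of 3 replicates (exact permutation p = 0.25, adjusted p = 0.333 over 4 comparisons). The windows around 5′ ends were added after the first values were seen.

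**Figure D1:**
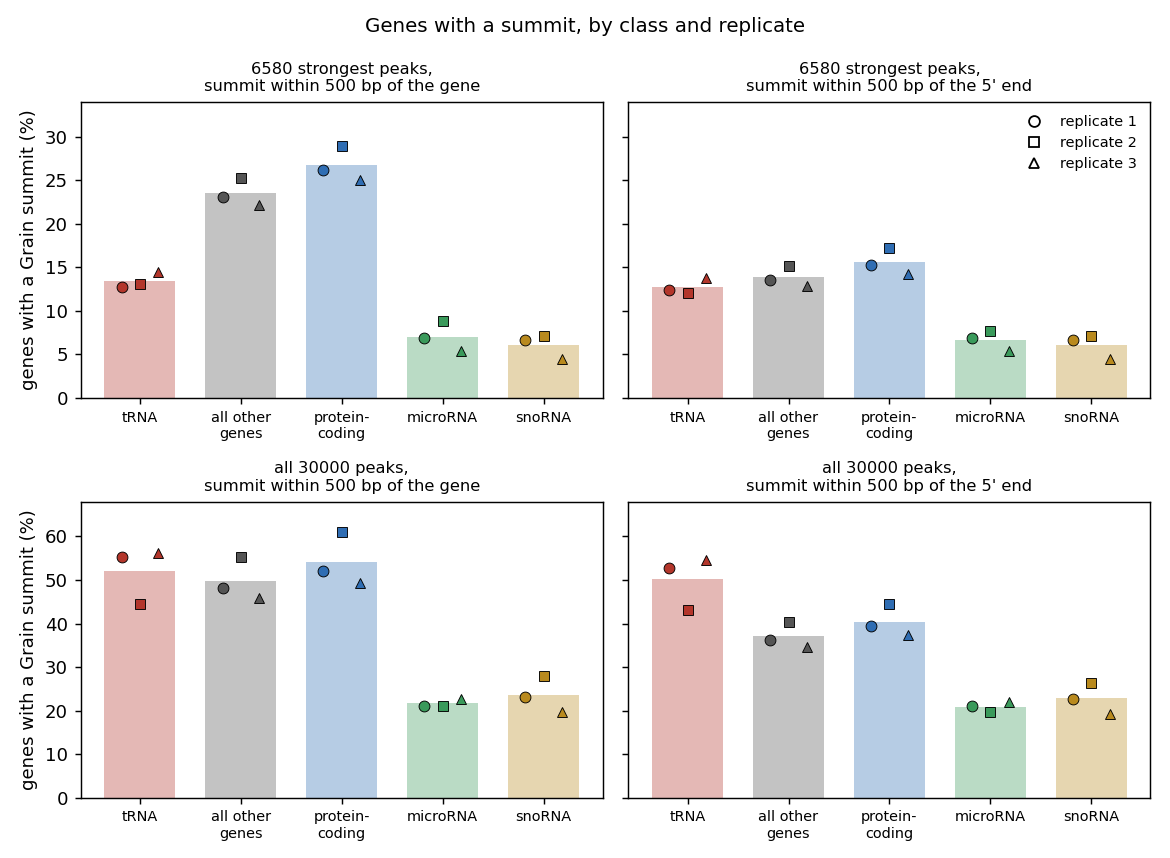
Percent of genes with a Grain summit, for tRNA genes and, to their right, 4 other gene classes; bars are means over 3 replicates and symbols the replicates. Top panels use the 6580 strongest peaks of each replicate and bottom panels all 30000, with summits counted within 500 bp of the gene on the left and of its 5′ end on the right. The tRNA share is 13.4% at the top left against 23.5% for all other genes, and replicate 2 is the lowest tRNA value in both bottom panels.

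With weaker peaks counted as well, more tRNA genes had a summit. The share of pooled peaks that lay at tRNA genes did not rise steadily towards weaker ranks. It was 0.608% at ranks 1 to 3290, 0.334% at ranks 3291 to 6580, and 0.4% to 0.6% in the bins below. The pooled list of 30000 peaks had a summit within 500 bp of 157 tRNA genes (54.1%), against 44.5% of all other genes and 44.7% of all genes together. The pooled peaks ranked below the optimal list alone reached 134 tRNA genes (46.2%), against 38.0% of all other genes and 38.2% of all genes. With the 1000 strongest pooled peaks the share was 2.41% of tRNA genes and 5.40% of all other genes, with 10000 it was 23.1% and 28.9%, and with 17500 it was 37.6% and 37.2%. Around 5′ ends, the pooled list reached 152 tRNA genes (52.4%), against 33.8% of all other genes and 34.1% of all genes. The median rank of the 150 pooled peaks nearest to tRNA genes was 15093.5. Those of them below the optimal list had a median −log10 q of 1.20, against 1.09 for the other peaks below it. Some of these weaker entries can be background.

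Replicate 2 stood apart in these weaker peaks. In the whole lists 160, 129 and 163 tRNA genes had a summit in replicates 1, 2 and 3, or 55.2%, 44.5% and 56.2%, while all genes together had 48.3%, 55.1% and 46.1%. The difference from all other genes was 7.01, -10.7 and 10.3 percentage points, so replicate 2 had the opposite sign. The mean was 2.18 ± 11.3 (SD, n = 3; exact permutation p = 1), or 8.64 without replicate 2. Against protein-coding genes it was 3.05, -16.6 and 6.83 points, mean -2.24 ± 12.6 (SD, n = 3; exact permutation p = 1), or 4.94 without replicate 2. Around 5′ ends the 3 differences were 16.4, 2.73 and 19.8 points, positive in all replicates, with a mean of 13.0 ± 9.03 (SD, n = 3; exact permutation p = 0.25, adjusted p = 0.333), or 18.1 without replicate 2. Against protein-coding 5′ ends they were 13.4, -1.48 and 17.1 points, mean 9.67 ± 9.84 (SD, n = 3; exact permutation p = 0.5), or 15.2 without replicate 2. The excess over microRNA genes, 30.3 ± 6.03 points, and over snoRNA genes, 28.4 ± 10.5 points (SD, n = 3 each), had the same sign in 3 of 3 replicates (exact permutation p = 0.25, adjusted p = 0.5 over 4 comparisons). The authors' −log10 q-values, which are capped at 1 maximum in each list, were also lowest in replicate 2, at a cap of 3.64 against 4.12 and 4.16 in replicates 1 and 3. The part of this in the tRNA counts was not tested.

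**Figure D2:**
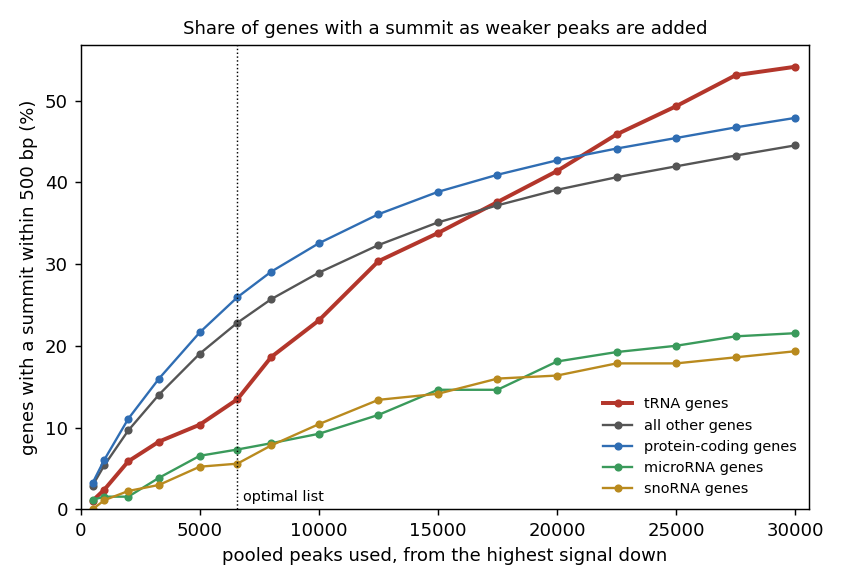
Percent of genes with a pooled summit within 500 bp (vertical axis) as the number of pooled peaks used grows from the strongest 500 to all 30000 (horizontal axis), by gene class. tRNA genes lie below all other genes at the optimal list (13.4% against 22.8%, dotted line) and above them at 30000 peaks (54.1% against 44.5%).

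Of the 290 tRNA genes, 104 had a summit in the whole lists of all 3 replicates, 53 in exactly 2, 34 in exactly 1 and 99 in none. Among genes with a summit in any replicate, 54.5% of tRNA genes and 59.4% of all other genes had it in all 3. Around 5′ ends these shares were 52.7% and 47.4%. Of the 39 genes with an optimal summit 36 were in all 3 whole lists, as were 65 of the 118 with a weaker pooled summit alone. In the 6580 strongest peaks, 24 tRNA genes had a summit in all 3 replicates and 55 in any, or 43.6% against 57.9% for all other genes. Around 5′ ends these shares were 40.7% and 43.9%.

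Summits were denser close to tRNA genes than a few kilobases away. Counting each base of the genome by its distance to the nearest tRNA 5′ end, optimal summits stood at 141 per Mb within 500 bp and at 75.1 per Mb at 1000 to 5000 bp. In the replicates' strongest peaks the ratio of the near to the far density was 1.78, 2.30 and 1.87, mean 1.98 ± 0.278 (SD, n = 3), and in their whole lists it was 2.11, 1.81 and 2.04. Around protein-coding 5′ ends the ratio was 3.21 ± 0.254 in the strongest peaks, and around microRNA and snoRNA 5′ ends 1.04 ± 0.211 and 0.873 ± 0.244 (SD, n = 3 each). The tRNA ratio was lower than the protein-coding ratio in 3 of 3 replicates, with differences of -1.43 to -1.08, and higher than the microRNA ratio by 0.705 to 1.07 and than the snoRNA ratio by 0.716 to 1.34 (exact permutation p = 0.25 for each, adjusted p = 0.3 over 6 comparisons). In whole lists the tRNA ratio and the protein-coding ratio of 2.14 ± 0.101 differed by less than their spread (difference -0.152 ± 0.235, SD, n = 3; exact permutation p = 0.5).

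In all pooled peaks the densest bin of 250 bp was just upstream of the gene. The 250 bp before the 5′ end had 13 optimal and 58 pooled summits, or 208 and 930 per Mb. The 250 bp after the 5′ end, which cover the gene itself, had 3 and 32. From 250 to 500 bp after the 5′ end there were 9 and 28, or 192 and 597 per Mb. Of the 31 optimal summits at tRNA genes, 19 lay before the gene, 1 in it and 11 after it, at a median distance of 199 bp from the gene. In the pooled list 86 of 150 lay before, 14 in and 50 after. Single outer bins of 250 bp also reached high values in the optimal list. The highest, at 4750 to 5000 bp upstream, had 206 per Mb from 7 summits, nearly the 208 of the bin before the gene. In the strongest peaks of replicates 1 and 3 that outer bin had 235 per Mb, above the 208 of the bin before the gene. In replicate 2 it had 177 against 192. The profile of strong summits is uneven at these counts.

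**Figure D3:**
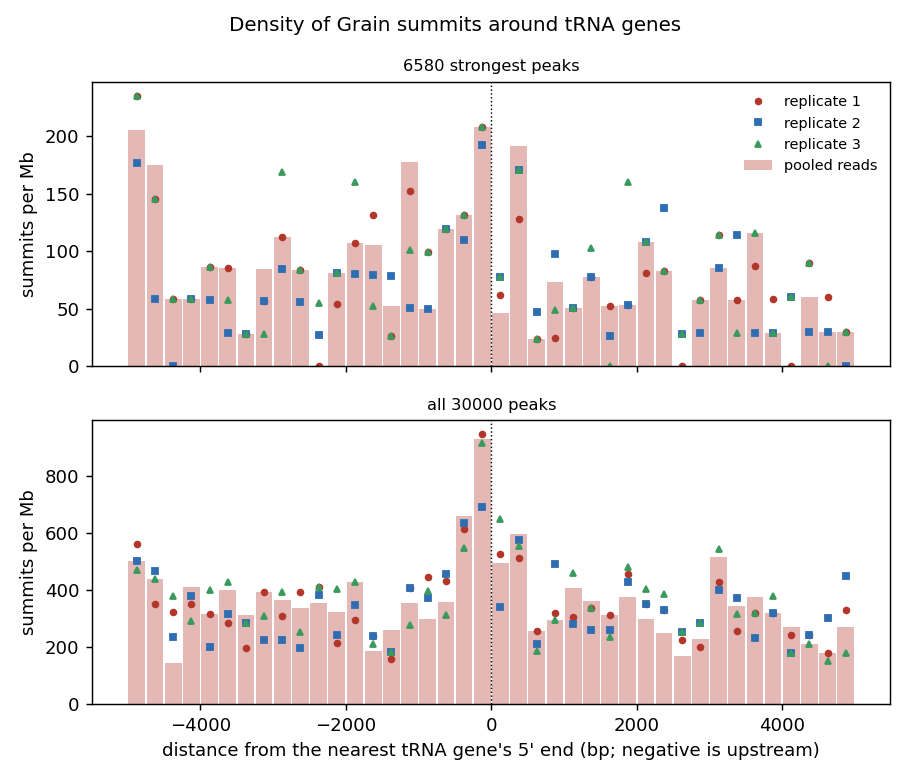
Grain summits per Mb (vertical axis) in bins of 250 bp by distance from the nearest tRNA 5′ end (horizontal axis, negative is upstream), for the strongest peaks at the top and all peaks below. Bars are the pooled reads and symbols the 3 replicates; the pooled list peaks at 930 per Mb in the 250 bp before the gene.

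The 31 optimal peaks at tRNA genes spanned ranks 178 to 6037 of 6580, with a median rank of 2355 against 3295 for the 6549 other optimal peaks, and 20 of them were in the stronger 3290. Their signal ran from 118 to 634 with a median of 217, against 176 for the other peaks, on the authors' own scale. Of these peaks 12 served more than 1 tRNA gene, up to 3. All 3 replicates had 21 of the 31 among their 6580 strongest peaks, 2 replicates had 7 and 1 replicate had 3. By replicate 28, 24 and 28 were found, 86.0% ± 7.45 on average, against 86.2% ± 4.24 of the other optimal peaks (SD, n = 3 each).

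Serine tRNA genes had the strongest of these peaks. Ser-TGA-1-1, on 2R, had a summit of signal 634 and rank 178 that lay 72 bp before the gene, and Ser-TGA-2-1 beside it had 1 of signal 373 and rank 794, 205 bp before. The peak intervals that overlap these summits in the replicates ranked 122, 337 and 259 in replicates 1, 2 and 3, the same peaks for both. The serine genes of the other strong pair, on 3R, were Ser-GCT-2-5 (signal 351, rank 915, 240 bp after the gene) and Ser-GCT-2-3 (signal 252, rank 1807, 90 bp before). Their replicate ranks were 1773, 1312 and 418 for Ser-GCT-2-5 and 2096, 2300 and 1673 for Ser-GCT-2-3. Ser-GCT-2-5 varied widely between replicates (mean rank 1168 ± 689, SD, n = 3), and Ser-GCT-2-3 less so (2023 ± 320). Both pairs lay away from annotated protein-coding starts, by 1787 to 3789 bp, and the hexamers of the 3R pair are those in the windows shown above.

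Glutamine genes had the next strongest peak, and tyrosine genes had several further down. Gln-TTG-2-1, on X inside CG12535, had a summit of signal 507 and rank 353, 418 bp after the gene, and a weaker summit of the same interval (signal 284, rank 1459, 217 bp after) with the hexamer printed above. That interval ranked 238, 801 and 403 in replicates 1, 2 and 3. Gln-CTG-2-3 (signal 254, rank 1778) had its summit 50 bp from the start of CG4238 and ranked 1972, 1592 and 1979. On 3R, Tyr-GTA-1-8 (signal 343, rank 972; 1314, 1776 and 687 in the replicates) lay 252 bp from the start of CG8036. The neighbours Tyr-GTA-1-4 (signal 296, rank 1331) and Tyr-GTA-1-5 (signal 228, rank 2154) had summits 120 and 39 bp before their genes and lay 2913 and 2626 bp from a protein-coding start. Their replicate ranks were 1415, 1696 and 1040 for Tyr-GTA-1-4 and 2079, 1696 and 1168 for Tyr-GTA-1-5, with 1 shared interval in replicate 2.

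The other strong peaks belonged to 4 other tRNA classes. The summit of Thr-AGT-1-6 (signal 421, rank 589), the third strongest of the 31, stood 21 bp after the gene and 483 bp from the start of AttD, which encodes an antibacterial peptide, and it ranked 565, 767 and 658 in the replicates. At Pro-AGG-1-3, inside the gene osp, a summit 23 bp after the gene (signal 327, rank 1084) counted for 3 proline genes and had the narrowest spread of the 31, with ranks 1225, 1221 and 1095 (mean 1180 ± 73.9, SD, n = 3). Phe-GAA-1-3 (signal 335, rank 1025; 869, 1407 and 1242) lay in Sema1a, a gene for an axon guidance protein, 27330 bp from its nearest annotated start. Phe-GAA-1-2 (signal 230, rank 2125; 2181, 1784 and 3259) lay 21 bp from the start of RpL17, a ribosomal protein gene. Ala-TGC-2-1 (signal 277, rank 1523) had ranks 1665, 3567 and 1078, weakest in replicate 2.

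At Gln-TTG-1-3, chosen after its values were seen, the summit lay inside the tRNA gene (signal 119, rank 5925), with ranks 4703 and 3883 in replicates 1 and 3 and no overlapping peak in replicate 2. The values at the limit of 500 bp were as follows. Just inside were the summits at Cys-GCA-1-1 (487 bp, signal 202, rank 2643) and Pro-AGG-1-5 (499 bp, signal 141, rank 4661). Just outside were summits at Leu-TAA-4-1 (521 bp, signal 147, rank 4397), which has a nearer summit as well, and at Gly-TCC-1-1 (526 bp, signal 319, rank 1136).

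**Figure D4:**
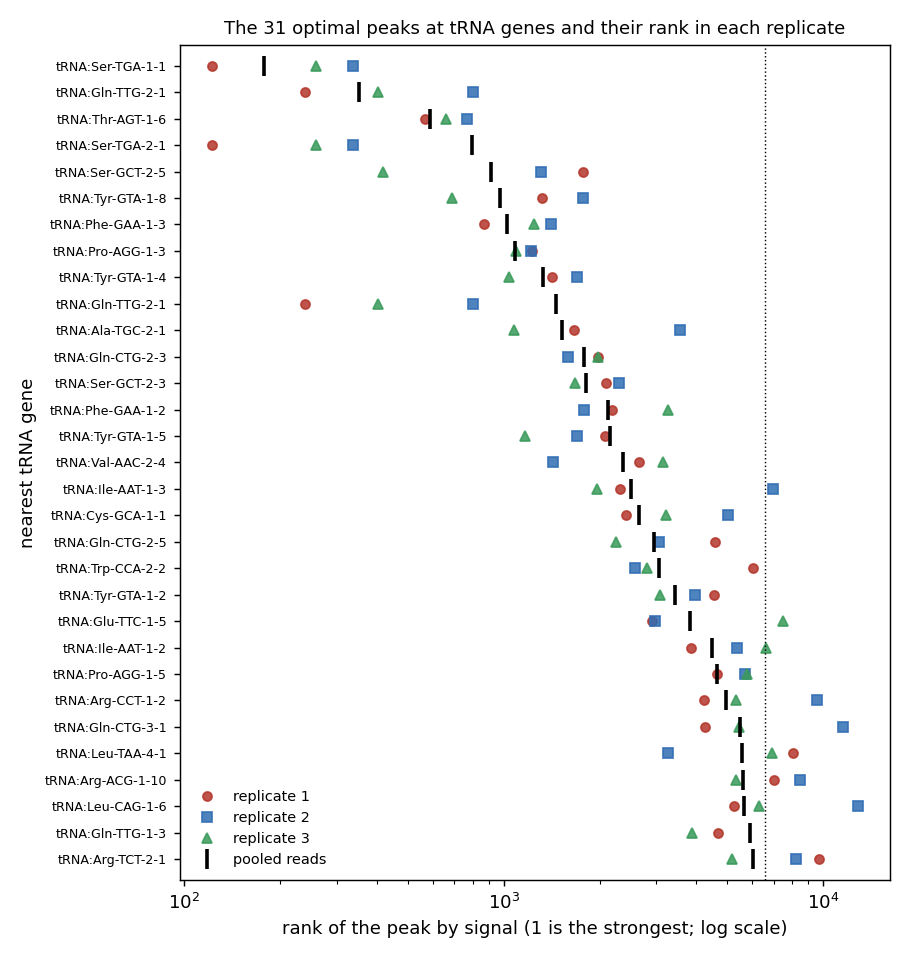
Rank by signal (horizontal axis, log scale, 1 is the strongest) of the 31 optimal peaks at tRNA genes (vertical axis, named by the nearest tRNA gene, strongest on top) in the pooled list (bars) and in each replicate (symbols). The dotted line is rank 6580; summits of 1 interval share their replicate ranks, as at Ser-TGA-1-1 and Ser-TGA-2-1, and Gln-TTG-1-3 has no symbol for replicate 2.

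Most of these peaks were away from protein-coding promoters. Of the 31, 7 (22.6%) lay within 500 bp of a protein-coding start, against 36.7% of the other optimal peaks, and 23 lay over 1000 bp away. The median distance was 2334 bp against 1209 bp. Protein-coding gene bodies held 13 of the 31. No share of the other optimal peaks stands beside this count, so it is not compared. Among the tRNA genes themselves, 9 of the 39 with an optimal summit (23.1%) and 24 of the 251 without (9.56%) lay within 500 bp of a protein-coding start, and 14 (35.9%) and 120 (47.8%) lay inside a protein-coding gene.

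The GATA hexamer was present within 50 bases of 13 of the 31 tRNA summits (41.9%), against 46.3% of the other optimal summits. In windows of the same length 500 bp to the right it was present at 6 of 31 (19.4%) and at 18.5% of the others. In the strongest peaks of each replicate, tRNA summits had it in 48.3%, 38.7% and 37.5%, mean 41.5% ± 5.90, and other summits in 44.2% ± 0.651 (SD, n = 3 each). The difference, -2.72 ± 5.36 percentage points, was within the spread (exact permutation p = 0.5, adjusted p = 0.5 over 6 motifs). The tRNA summits exceeded their own flanking windows by 14.2 ± 4.26 points in 3 of 3 replicates (SD, n = 3; exact permutation p = 0.25). Their flanking windows had the hexamer in 31.0%, 22.6% and 28.1% in replicates 1, 2 and 3, against 18.01%, 19.4% and 17.7% for the other summits, so the step from flank to summit was smaller at tRNA genes in each replicate, a difference with no test. At the 119 weaker pooled summits near tRNA genes the hexamer was present in 39 (32.8%, flank 18.5%), against 28.4% of the other weaker summits (flank 16.3%). Over the whole window of a tRNA gene it was common with or without a peak: 92.3% of the 39 genes with an optimal summit and 92.0% of the 251 without had at least 1.

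Other elements were searched on both strands of the same windows. The DREF element, TATCGATA, which itself holds the letters GATA, was present at 1 of the 31 tRNA summits (3.23%) and at 1.33% of the others. The M1BP element, GGTCACAC, was at 0 of the 31 and at 0.763% of the others. The letters GAGAG, bound by GAGA factor, were at 3 of the 31 (9.68%) and at 15% of the others, and at 19 of 119 weaker tRNA summits (16.0%) and 13.3% of the other weaker ones, in the opposite order. The B box letters were present at 8 of 31 tRNA summits (25.8%) against 11.7% of the others, and at 24 of 119 weaker ones (20.2%) against 10.1%, where a window can reach into the tRNA gene. The flanking windows of the 119 had them at 23 (19.3%), close to the summits' own share, and those of the 31 at 4 (12.9%), below it. The A box was at 5 of 31 (16.1%) against 13.1%, and at 26 of 119 weaker ones (21.8%) against 13.5%. The flanking windows of these tRNA summits had the A box at 6 of 31 (19.4%) and 27 of 119 (22.7%). No difference between tRNA and other summits had an exact permutation p under 0.25 over the replicates, the smallest possible.

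Counts by tRNA class are given as a description, with no test, beside the 13.4% of all tRNA genes and 22.7% of all genes with an optimal summit. Glutamine genes had 7 of 12 (58.3%), all 7 of those with any pooled summit, and tyrosine genes 4 of 10 (40%). Serine genes had 5 of 20 (25.0%), proline genes 4 of 17 (23.5%) and arginine genes 5 of 26 (19.2%), near the 22.7% of all genes. That 22.7% rests on windows around longer genes, and around 5′ ends 13.3% of all genes had an optimal summit. By replicate the glutamine count was 7, 3 and 7, the tyrosine count 4, 5 and 4, and the arginine count 2, 1 and 5. Within proline, the AGG anticodon had 4 of 7, while CGG had 0 of 5 and TGG 0 of 5. Within serine, GCT had 3 of 6 and TGA 2 of 2, while AGA had 0 of 8 and CGA 0 of 4. A class often shares peaks and near-identical sequence, since neighbouring genes carry the same tRNA, so its genes are not independent counts.

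The classes with no optimal summit were asparagine (0 of 10), aspartate (0 of 14), histidine (0 of 5), lysine (0 of 19), elongator methionine (0 of 6), initiator methionine (0 of 6) and selenocysteine (0 of 1). Lysine and asparagine genes had weaker pooled summits, at 11 of 19 and 5 of 10, the best of them ranked 8743 and 8052. Histidine genes had none in the pooled list, and none in the whole lists of replicates 1 and 3, but 2 in that of replicate 2. Of the initiator genes, whose tRNA starts translation, iMet-CAT-1-1 and iMet-CAT-1-2 shared a pooled summit of rank 7288 (ranks 7164, 10528 and 8299 in replicates 1, 2 and 3). iMet-CAT-2-1 had 1 of rank 20722, and iMet-CAT-1-3, iMet-CAT-1-4 and iMet-CAT-1-5 had none in any list. The selenocysteine gene SeC-TCA-1-1, which reads a stop codon as selenocysteine, had 1 of rank 11287 (16945, 13422 and 8096).

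**Figure D5:**
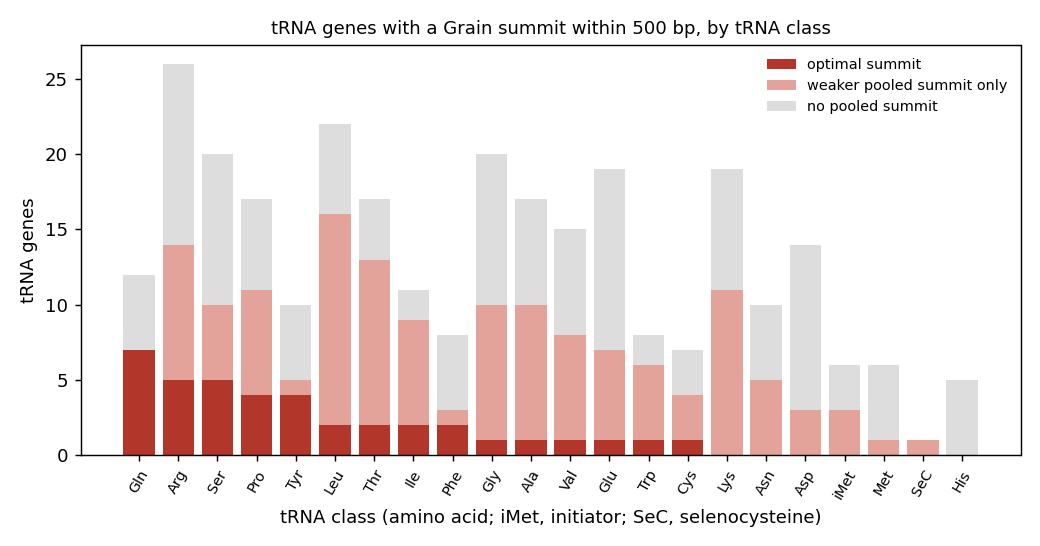
Number of tRNA genes (vertical axis) in each tRNA class (horizontal axis), stacked by whether a gene had an optimal summit, a weaker pooled summit alone, or no pooled summit within 500 bp. Glutamine has 7 of 12 genes with an optimal summit, and 7 classes have none.

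tRNA genes lie in clusters, and joining genes up to 1000 bp apart gave 174 loci. An optimal summit was found at 27 of them (15.5%), and a pooled summit at 91 (52.3%). The strongest peaks of the replicates reached 25, 29 and 28 loci, or 14.4%, 16.7% and 16.1%. Of the 105 loci of 1 gene 8 had an optimal summit (7.62%), and of the 43 loci of 2 genes 11 did (25.6%). A larger locus also offers a longer window. Among the 5 largest, the 7 genes on X from Arg-TCG-2-1 (14014814 to 14017284, with arginine and serine genes) had no optimal and no pooled summit, although a weak peak near Arg-TCG-2-1 and Ser-CGA-1-1 ranked 25157, 27554 and 29698 in the whole lists of replicates 1, 2 and 3. The windows of its last 4 genes had 67.6% to 78.8% of 50-base stretches that occur once in the genome. The 7 isoleucine and leucine genes on 2R from Ile-AAT-1-3 had 1 optimal summit and 6 genes with a pooled summit. The 6 genes on 3R from Asn-GTT-1-10 and the 6 on 3L from Cys-GCA-1-1 had 1 optimal summit each, with pooled summits at all 6 genes of each locus. The 5 genes on 2R from Arg-ACG-1-2 had no optimal summit and pooled summits at 4 genes.

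By arm, the share of tRNA genes with an optimal summit was 24.4% on 2L (10 of 41), 16.5% on 3R (13 of 79), 10.2% on 2R (10 of 98), 8.33% on 3L (4 of 48) and 8.33% on X (2 of 24). The same shares for all other genes were 21.0%, 24.5%, 24.3%, 23.2% and 20.7%. 2L was the arm where the tRNA share was not below that of the other genes. The pooled share of tRNA genes was 29.2% on X and 63.3% on 2R. It was not set against the pooled share of other genes on those arms, so an arm-wide difference cannot be told apart.

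Copy number can limit the mapping of reads. Of the 39 genes with an optimal summit 11 (28.2%) had a sequence found once in the genome, against 41 of the 251 without (16.3%). In a window of the gene and 500 bp on each side, the median share of 50-base stretches that occur once was 96.6% for the 39 genes and 96.03% for the 251. Under 50% stood 5 tRNA genes, 0 of them with an optimal summit. Windows made of such stretches alone belonged to 16 tRNA genes, and 2 of these had an optimal summit, beside 39 of all 290. The 96 genes for 5S rRNA, which RNA polymerase III also transcribes and which are arrayed in near-identical copies, had a median of 0% and no summit in any list. The handling of reads that map to several places is not given in the sources used here, so an absence there is not a measurement of binding.

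Other genes of the pathway were read against the 25.9% of all protein-coding genes with an optimal summit. Among RNA polymerase III subunits and initiation factors 2 of 18 matched genes had one (11.1%). The 6 listed genes that were not matched are the subunits of TFIIIC, which is therefore not covered. The 2 matched genes with an optimal summit were Brf, a subunit of TFIIIB, and the polymerase subunit gene Polr3C. The summit of Brf was 112 bp from its own start (signal 206, rank 2561). That of Polr3C (signal 134, rank 5017) was nearest to the start of CG5961. Bdp1, another subunit of TFIIIB, and Maf1, a repressor of the polymerase, had no pooled summit. Among 35 aminoacyl-tRNA synthetase genes, whose products charge tRNAs with amino acids, 5 had an optimal summit (14.3%), and 5, 9 and 6 had a strong summit in replicates 1, 2 and 3. The strongest were at AspRS (signal 426, rank 574, but nearest to the start of Lfg), SerRS (signal 205, nearest to the start of CG17260), GluProRS (signal 189, nearest to its own start) and SerRS-m (signal 154, 1509 bp from its own start and nearest to that of Nagk). AlaRS had a weaker pooled summit and AlaRS-m had none. Of 15 genes for tRNA processing and modification 2 had an optimal summit (13.3%), Archease and Rpp20, at ranks 5867 and 6137, that of Rpp20 nearest to the start of COX6B, and Mt2 and Nsun2 had none.

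Among 10 other genes for RNAs made by polymerase III, 3 had an optimal summit (30.0%), against 22.7% of all genes, 7.31% of microRNA genes and 5.58% of snoRNA genes. In the strongest peaks of each replicate 3 had a summit. The 96 genes for 5S rRNA are not among the 10 and had no summit in any list. The 3 genes with an optimal summit included both genes for 7SK RNA, a regulator of transcription elongation. Their values were signal 355 and rank 892 for snRNA:7SKa and signal 127 and rank 5449 for snRNA:7SKb. The third was the RNase MRP RNA gene, at signal 176 and rank 3303. The summits of snRNA:7SKa, snRNA:7SKb and RNase MRP RNA were 77, 152 and 51 bp from the genes' own starts, and each had a GATA hexamer within 50 bases. Of optimal summits away from tRNA genes 46.3% had one. Among the pathway genes named above, the summits of AspRS, GluProRS, SerRS-m and Archease had the hexamer. Those of Brf, Polr3C, SerRS and Rpp20 did not. The genes for 7SL RNA, RNase P RNA and U6 RNA had no pooled summit.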

How the data were processed

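Grain was profiled by ChIP-seq in 3 replicates, and the deposited peak lists on dm6 were used. Per the labels, the assemblies are dm6 and dm3; the dm3 lists were not used here. Peaks carry the authors' signal, on an unstated scale that differs by list. Their deposited −log10 q-values stop at a maximum, 4.21 in the pooled list. No aligner or peak caller is named (not given in the sources used here). The control was not analysed here.

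Peaks were ranked by signal within a list. The summit is the deposited start plus offset, counted from 1. Genes and transcripts came from Ensembl release 115, and bases from RefSeq's release 6 of the genome. Each optimal peak took the rank of the strongest replicate peak overlapping it by at least 1 bp. Sets that share genes or peaks are not independent. Replicates were compared by two-sided exact sign-flip permutation tests with Benjamini-Hochberg adjustment, where 0.25 is the smallest p. No test was made over genes. Counting of summits near genes was checked on simulated data.

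The members, lists and tests were chosen with earlier results of these data known. The genes named are those nearest the 15 strongest optimal peaks at tRNA genes, initiator and selenocysteine genes, the 2 summits on each side of 500 bp, the 5 largest loci, and up to 4 members with and 2 without an optimal summit in each pathway list. Of 24 listed genes of the polymerase III machinery 18 were matched, and of 17 for processing 15. A further listed gene is not reported here. Python 3.11.15, numpy 2.4.6, pandas 2.3.3, scipy 1.17.1 and matplotlib 3.10.9 were used.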

Additional observations from a re-analysis of the deposited data

How the results depend on the processing

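The count of 39 tRNA genes with an optimal summit was 24 with the strongest 3290 peaks (8.28%, other genes 14.0%), 25 with a window of 250 bp (8.62%, other genes 19.8%), 63 with 1000 bp (21.7%, other genes 26.5%) and 25 with peaks found in all 3 replicates (8.62%, other genes 16.9%). It was 157 with all pooled peaks (54.1%, other genes 44.5%), 134 with pooled peaks below the optimal list (46.2%, other genes 38.0%), 16 with peak intervals over the gene itself (5.52%), and 11 among the 52 genes with a sequence found once (21.2%). Keeping peaks found in both other replicates, it was 25 to 33 (8.62% to 11.4%), lowest without replicate 1. For intervals over the gene, single-copy genes and replicates left out, no share of other genes stands beside the count, so these are not compared. The difference in share from all other genes, -10.0 points, kept its sign with the strongest 3290 peaks, windows of 250 and 1000 bp, protein-coding genes as the comparison, 1 locus in place of 1 gene, and each replicate left out. Those settings all kept windows around the whole gene, which are longer for the other genes. With windows of equal length around the 5′ end the difference was -1.09 ± 2.03 points (SD, n = 3), and the replicates did not share a sign. The difference turned to 2.18 with all peaks, where leaving out replicate 2 gives 8.64, to 6.40 against microRNA genes and to 7.38 against snoRNA genes. The cause of these changes was not tested.

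The hexamer share of 41.9% was 25.8% within 25 bases of the summit, 64.5% within 100 bases, 32.8% in weaker peaks and 50% in the strongest 3290. The share of summits near a protein-coding start, 22.6%, was 12.9% within 250 bp, 30.0% in the strongest 3290 and 16.0% in all pooled peaks. The share of loci, 15.5%, was 13.8% and 17.4% with genes joined up to 500 and 5000 bp apart, 9.20% with the strongest 3290, 52.3% with all pooled peaks, and 9.77% to 12.6% with 1 replicate left out, where a peak must be in both others. The median distance of 199 bp was 182 bp in the pooled list, and 193 bp in the strongest peaks of replicates 1 and 2. The 7 of 53 pathway genes with an optimal summit were 4 with the strongest 3290 and 19 with all pooled peaks. The tests already take differences within each replicate, and with 1 group no other pairing was possible.

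With 3 replicates no p can fall under 0.25, and with no read counts the depth limit of a missing peak is unknown. The lists of 30000 peaks reach far below the authors' own threshold.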
